A study of Mus musculus with 40 samples.

Results

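The ATF4-CHOP stress response core genes described here are the 10 mouse genes Atf4, Atf3, Atf5, Ddit3, Trib3, Chac1, Sesn2, Gdf15, Ddit4 and Ppp1r15a. They were taken as the rows of the deposited count table whose Ensembl identifiers map to these symbols, and are 10 of the 43430 genes listed. All 10 had enough reads to be tested, among 11853 genes tested in all.

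ATF4 is a bZIP transcription factor whose mRNA is translated more when kinases that sense endoplasmic reticulum, amino acid, viral, haem or mitochondrial stress phosphorylate the initiation factor eIF2alpha. ATF4 and the bZIP factor CHOP, which Ddit3 encodes, then raise transcription of genes for amino acid supply, feedback on the pathway and, under lasting stress, cell death. In many cell types inhibitors of mitochondrial respiration are known to engage this programme, and the mRNA of several of its genes is used as its readout.

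The study asked how electron transport through mitochondrial complex I bears on macrophage activation. Bone marrow-derived macrophages (BMDMs) of C57/Bl6 mice, grown from marrow with M-CSF and harvested on day 6, were compared between VAV-Cre WT mice (WT) and VAV-Cre NDI1 mice (NDI1). All cells were grown in medium that held methyl-pyruvate and uridine. By their labels both genotypes carry the Vav-iCre transgene, which is active in blood-forming cells, so any effect of Cre is shared. NDI1 mice, from a line of mixed C57Bl/6J/N background bred to the Cre line, carry in addition a Rosa26 lox-stop-lox allele for the Saccharomyces cerevisiae NADH dehydrogenase NDI1, which is expressed where Cre acts, passes electrons from NADH to ubiquinone without pumping protons, and is insensitive to piericidin A, a complex I inhibitor. The mice were littermates of both sexes at 8 to 14 weeks of age. Macrophages of each mouse were left untreated, given 100 ng/ml ultra-pure LPS for 4 h, given 500 nM piericidin A, or given piericidin A 30 min before LPS, which made 8 groups of 5 mice and 40 libraries. The time spent in piericidin A by the cells that got no LPS is not given in the sources used here. NDI1 supplies an NADH dehydrogenase next to the cells' own complex I and does not restore complex I itself, which limits what the genotype can be a model of.

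Totals ran from 6950748 to 13552070 counts per library. Macrophage markers were found in all 40 libraries, with Adgre1, Csf1r, Cd68, Itgam, Lyz2, Mertk and Fcgr1 summing to at least 19259 CPM (read counts scaled to library size, with TMM factors). Most of this sum was Lyz2 (12943 to 31241 CPM), and the lowest values of Mertk and Fcgr1 were 54.7 and 99.4 CPM. Neutrophil markers (Ly6g, Mpo, Elane, Camp, Ngp) stood apart in 1 mouse of each genotype: they summed to 190.0 to 1157 CPM in the 4 libraries of WT mouse 496 and to 169 to 299.8 CPM in those of NDI1 mouse 503, against 3.41 to 62.3 CPM in the libraries of the other 8 mice. Ngp reached 1065 CPM in mouse 496, and Ly6g was at or near 0 in all libraries (at most 2.02 CPM). Results are therefore also given without these 2 mice where they matter, and counts in bulk RNA cannot tell fewer cells of a type from less RNA per cell. Below, CPM values of WT libraries are listed in the order of mice 449, 452, 453, 496 and 520, and those of NDI1 libraries in the order of mice 447, 460, 461, 503 and 521.

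The members lie apart in the genome (deposited coordinates, mm10). Atf4 spans chr15:80255184-80257540 on the plus strand, Ddit3 chr10:127290774-127296288 on the plus strand, Atf3 chr1:191170296-191218039 on the minus strand and Atf5 chr7:44812257-44816658 on the minus strand. Trib3 spans chr2:152337422-152344032 (minus), Ppp1r15a chr7:45522916-45526268 (minus), Chac1 chr2:119351229-119354381 (plus), Sesn2 chr4:132492032-132510501 (minus), Ddit4 chr10:59949675-59951770 (minus) and Gdf15 chr8:70629393-70632456 (minus). The counts of Ddit3 and Atf5 are less certain than the others, because Ddit3 overlaps the methionyl-tRNA synthetase gene Mars (mean 33.4 CPM) and Atf5 overlaps Il4i1 (31.5 CPM) and an unnamed gene (77.8 CPM), all on the opposite strand, and use of strand in the counting is not stated.

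The promoters of all 10 members were searched for the letters that stress-induced bZIP factors are known to bind. The window of each gene in RefSeq (GRCm38.p6, the assembly behind mm10) ran from 250 bases before to 50 bases after an annotated start site, and the 10 genes had 12 such windows. The only window of Atf3 lies inside the deposited span of the gene (chr1:191170296-191218039), so the 5′ end of that span was not searched. TGATGNAA, the composite C/EBP-ATF letters, stood on either strand in 3 of these 12 windows, those of Atf3, Chac1 and Trib3, against 3.97% of all 32851 windows. TGACGTNA, a cyclic AMP response element with 1 open base, stood in 2 of 12, those of Atf3 and Ppp1r15a, against 2.93% of all windows, and Ppp1r15a had the full palindrome TGACGTCA, which 1.79% of all windows hold. The match of the palindrome and that of TGACGTNA in Ppp1r15a are the same letters, and no composite match overlapped a response element match. The 3 members with a match before the start site are printed to show where it lies, together with Gdf15, a member with a large response whose windows held neither motif. Each is 150 bases long on the strand of its gene, 5′ to 3′, with the matched letters in capitals.
Atf3, minus strand, chr1:191183334-191183483, bases -150 to -1 from the start site: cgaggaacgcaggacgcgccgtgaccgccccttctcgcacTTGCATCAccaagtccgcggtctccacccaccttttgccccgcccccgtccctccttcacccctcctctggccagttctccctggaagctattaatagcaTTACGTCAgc
Chac1, plus strand, chr2:119351029-119351178, bases -213 to -64: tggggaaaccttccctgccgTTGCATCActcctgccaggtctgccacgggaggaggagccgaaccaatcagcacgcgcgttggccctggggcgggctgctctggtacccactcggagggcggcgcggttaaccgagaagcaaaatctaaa
Ppp1r15a, minus strand, chr7:45526269-45526418, bases -150 to -1: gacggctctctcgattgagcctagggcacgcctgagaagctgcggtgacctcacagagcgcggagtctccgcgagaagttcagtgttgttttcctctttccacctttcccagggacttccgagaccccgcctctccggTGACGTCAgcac
Gdf15, minus strand, chr8:70632457-70632606, bases -150 to -1: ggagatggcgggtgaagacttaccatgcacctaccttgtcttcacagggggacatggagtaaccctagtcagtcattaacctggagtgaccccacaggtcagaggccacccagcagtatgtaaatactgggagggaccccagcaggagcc
In Atf3 the composite match began at -110 and the response element match at -10, in Chac1 the composite match began at -193, and in Ppp1r15a the palindrome began at -12. The match of Trib3 lay after the start site, at 15. Atf4, Atf5, Ddit3, Sesn2 and Ddit4 had no match in their windows, which says only that these letters are not within them. A match is a description of the sequence and not of a bound factor.

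Levels of different genes were compared per kilobase of union exon length (GENCODE M21). In untreated WT macrophages Atf3 stood highest at 143 ± 48.9 CPM per kilobase (SD, n = 5), followed by Atf4 at 63.9 ± 21.4. A middle set followed whose neighbours did not differ beyond their spread: Ddit3 at 26.8 ± 7.57, Atf5 at 25.6 ± 5.11, Gdf15 at 22.3 ± 6.36, Ppp1r15a at 11.2 ± 2.35, Trib3 at 10.3 ± 6.53 and Sesn2 at 8.91 ± 1.02, except that Gdf15 and Ppp1r15a stood apart by more than the SD of either. Ddit4 at 1.33 ± 0.330 and Chac1 at 0.798 ± 1.35 were the lowest and overlapped. In WT macrophages given piericidin A, Gdf15 had the highest mean of the 10 genes, at 413 ± 269 CPM per kilobase, ahead of Atf3 at 404 ± 205 with overlapping spread. The order depends on the length used: per kilobase of the deposited length, untreated Atf4 (87.4) stood above Atf3 (69.9).

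Piericidin A without LPS raised 9 of the 10 genes in WT macrophages and lowered none, against 14.8% of all genes called and 7.79% called higher (edgeR quasi-likelihood test, adjusted p under 0.05). Gdf15 rose 18.5-fold and Chac1 11.1-fold, and Trib3, Atf3, Ppp1r15a, Atf4, Ddit4, Ddit3 and Sesn2 rose between 1.63-fold and 3.02-fold. The value of Chac1 turned on mouse 520: its log2 fold change was 3.47 with this mouse and 4.86 without it. Atf5, a bZIP factor of the same family, had a fold change of 1.39 and an edgeR adjusted p of 0.0551. In NDI1 macrophages none of the 10 passed the edgeR threshold, and none of all genes did (0%, with 58 genes at an unadjusted p under 0.05, none of them a member, and 0 genes by DESeq2 or with mouse as a block). The NDI1 log2 fold changes were above 0 for 9 of the 10 genes, with a median of 0.18 against 0.0024 over all genes. The libraries of 1 mouse vary together, so the same model with mouse as a block was also fitted. With it all 10 rose in WT, Atf5 included (adjusted p = 9.06e-05), among 34.2% of all genes called. In the fit without a mouse term, Sesn2 and Ddit4 lost their call without mouse 496, Ddit3, Sesn2 and Ddit4 without mouse 520, and Ddit4 without mouse 449 or 453.

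**Figure D1:**
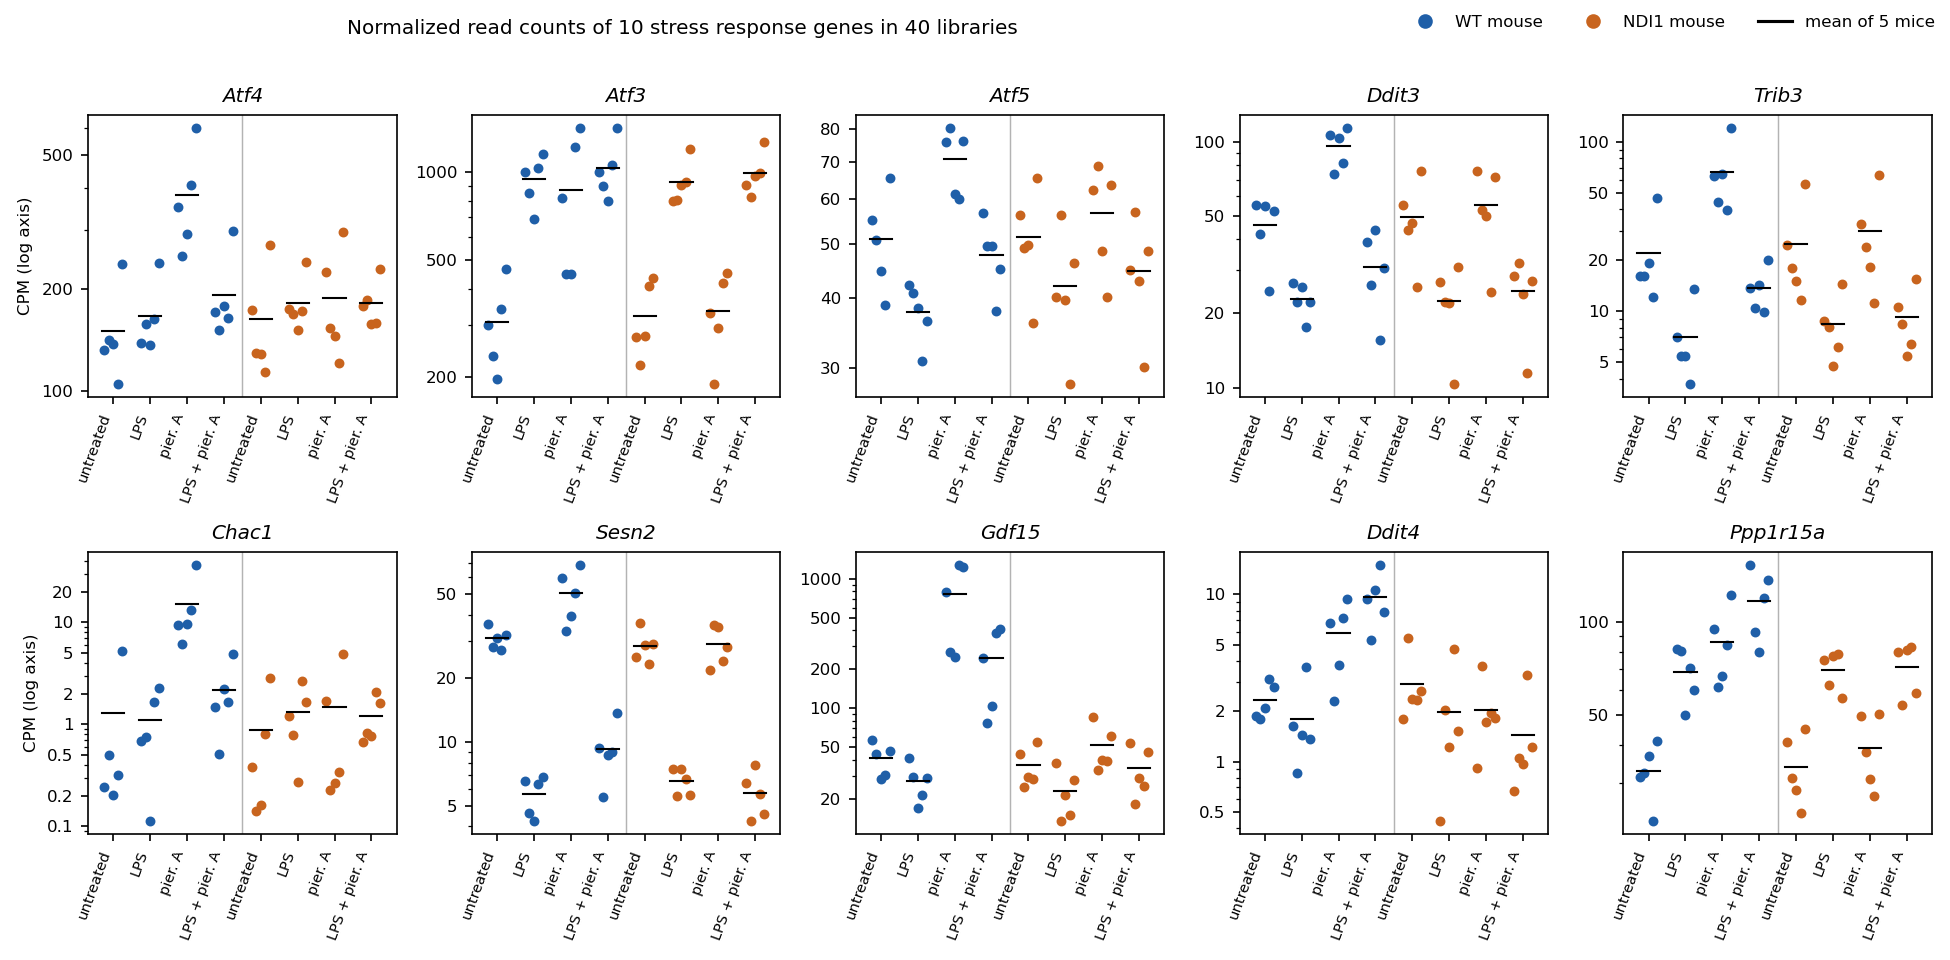
Normalized read counts (CPM, log axis) of the 10 genes in each of the 40 libraries, by treatment, with WT mice in blue on the left and NDI1 mice in orange on the right of each panel; each point is 1 mouse and each black line the mean of 5. Gdf15 in WT lies between 28.5 and 56.8 CPM untreated and between 249 and 1285 CPM with piericidin A, while the NDI1 points with piericidin A stay between 33.3 and 85.8 CPM.

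With LPS present, piericidin A raised 4 of the 10 genes in WT macrophages, Gdf15, Ddit4, Ppp1r15a and Sesn2, and lowered none (16.7% of all genes called, 7.81% called higher). The fit with mouse as a block called 7 higher, with Atf5, Ddit3 and Trib3 added, among 34.5% of all genes called. Atf4, Atf3 and Chac1 passed neither fit. Without mouse 520 the fit without a mouse term kept only Gdf15 and Ddit4. In NDI1 macrophages none of the 10, and none of all genes, passed the edgeR threshold (0%, with 127 genes at an unadjusted p under 0.05, none of them a member, and 0 genes by DESeq2 or with mouse as a block). The NDI1 log2 fold changes with LPS were above 0 for 7 of the 10 genes, with a median of 0.056 against -0.0062 over all genes. The groups with and without piericidin A did not overlap in WT for 5 genes without LPS (Atf4, Ddit3, Chac1, Gdf15 and Ppp1r15a, against 11.4% of all genes) and for 2 genes with LPS (Gdf15 and Ddit4, against 7.88% of all genes).

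**Figure D2:**
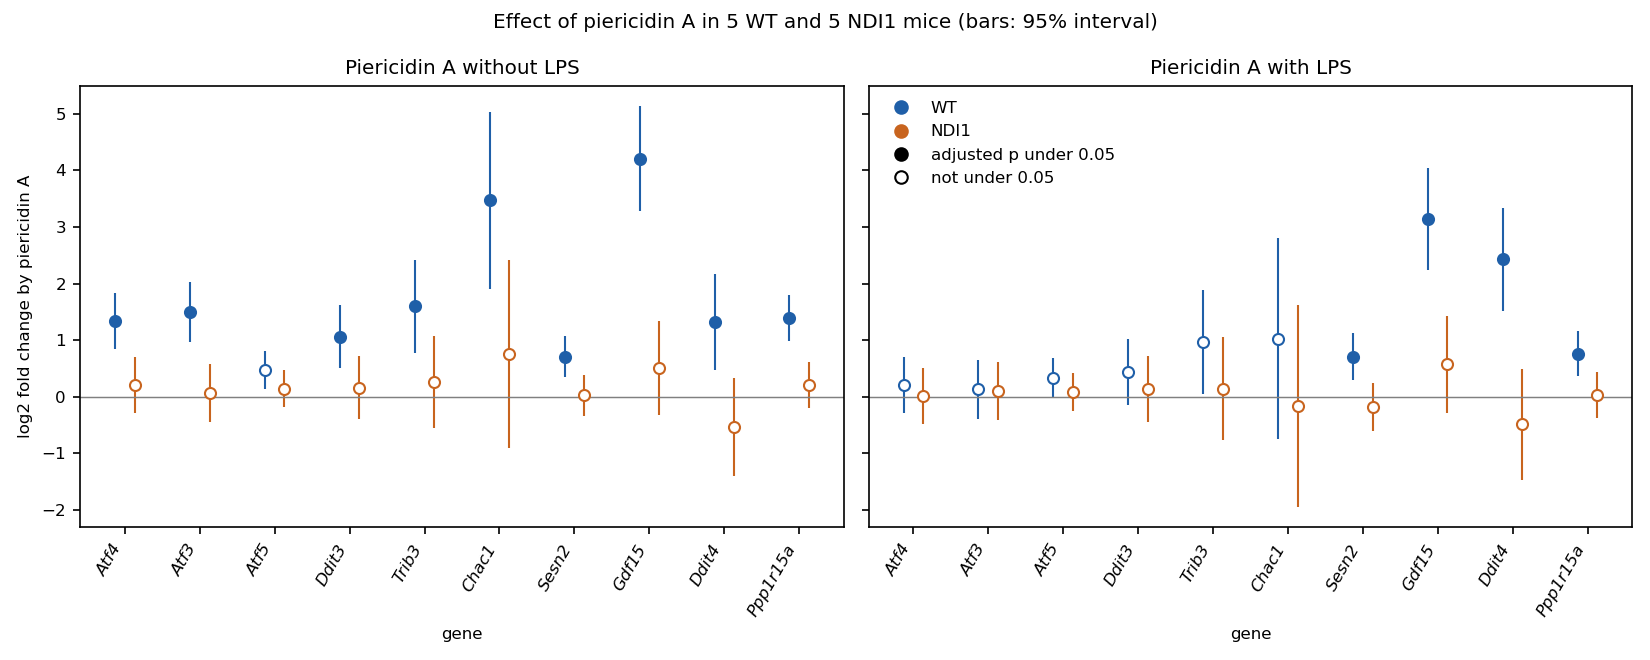
Log2 fold change by piericidin A for each gene, without LPS (left) and with LPS (right), in WT (blue) and NDI1 (orange); points are edgeR estimates over 5 mice per group, bars are 95% intervals from the standard errors, and filled points passed an adjusted p of 0.05. Filled points are found in WT only, 9 without LPS and 4 with LPS.

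Atf4 encodes the factor at the head of the response, which is controlled largely at translation, so its mRNA is not a measure of its protein. Its level in the 5 untreated WT libraries was 132, 141, 138, 105 and 237 CPM, and with piericidin A it was 350.0, 251, 292, 409 and 604 CPM. Every WT library with piericidin A lay above every untreated one, and mouse 520 was the highest in both. Atf4 rose by 1.34 ± 0.26 (SE) on the log2 scale (edgeR adjusted p = 0.000369). With LPS the levels were 139, 158, 137, 163 and 240.0 CPM and, with piericidin A added, 171, 152, 179, 164 and 297 CPM, and these ranges overlapped. The log2 fold change by piericidin A was then 0.21 (95% interval -0.29 to 0.70, edgeR adjusted p = 0.617). In NDI1 it was 0.21 without LPS (95% interval -0.29 to 0.70), with levels of 113 to 270.2 CPM untreated and 121 to 295 CPM with piericidin A. Within mice Atf4 was higher with piericidin A in 5 of 5 NDI1 mice, by 0.10 to 0.37 on the log2 CPM scale, and the block did not call it either (adjusted p = 1).

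Ddit3 encodes CHOP, a bZIP factor that pairs with C/EBP proteins. Untreated WT libraries held 55.4, 42.0, 54.6, 24.7 and 52.4 CPM of it, and those with piericidin A held 106, 73.6, 103, 82.0 and 114 CPM. Each mouse rose, by 0.81 to 1.72 on the log2 CPM scale, and the groups did not overlap. The fitted rise was 1.06 ± 0.29 (SE) on the log2 scale (edgeR adjusted p = 0.0103). LPS alone left 26.7, 22.2, 25.5, 17.7 and 22.3 CPM, lower than untreated in each mouse, and piericidin A with LPS 38.9, 26.1, 43.9, 15.6 and 30.6 CPM. In this setting 4 of 5 WT mice were higher with piericidin A and mouse 496 was lower, and the log2 difference of 0.43 passed with mouse as a block (adjusted p = 0.0226) and not without it (edgeR adjusted p = 0.333). NDI1 libraries had 25.6 to 76.1 CPM untreated and 24.6 to 76.2 CPM with piericidin A.

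Atf3, a stress- and Toll-like receptor-induced bZIP factor known to restrain inflammatory genes, behaved unlike Ddit3 under LPS. Its WT levels were 299.8, 235, 196, 342 and 467 CPM untreated and 816, 449.6, 449, 1218 and 1418 CPM with piericidin A. Mice 452 and 453 gave the lowest values with piericidin A, just under the highest untreated value. The rise was 1.50 ± 0.27 (SE) on the log2 scale (edgeR adjusted p = 0.000168). LPS alone took Atf3 to 1003, 849, 690.3, 1036 and 1153 CPM, above every untreated library, and LPS with piericidin A to 997, 899, 798, 1060.3 and 1411 CPM. These last groups overlapped, with a log2 difference of 0.13 (95% interval -0.39 to 0.64). Atf3 was the only member whose piericidin A effect differed between LPS and no LPS in WT without a mouse term, by -1.37 ± 0.37 (SE) on the log2 scale (edgeR adjusted p = 0.0253, against 4.75% of all genes called), and this call was lost without mouse 449, 520 or 496 (edgeR adjusted p = 0.0994, 0.0511 and 0.174). With mouse as a block 6 members differed (17.4% of all genes called): Atf4, Atf3, Ddit3, Trib3 and Chac1 had a smaller effect with LPS, and Ddit4 a larger one. Without mice 496 and 503 the block called 4 of these, Atf4, Atf3, Trib3 and Ddit4.

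Atf5, a bZIP factor linked to the mitochondrial unfolded protein response, had the smallest change by piericidin A without LPS in WT. WT libraries held 55.2, 50.8, 44.8, 38.9 and 65.6 CPM untreated and 76.0, 80.6, 61.3, 60.1 and 76.1 CPM with piericidin A. All 5 mice were higher with piericidin A, by 0.21 to 0.66 on the log2 CPM scale, but the groups overlapped. With LPS the values were 42.2, 40.9, 38.4, 30.9 and 36.5 CPM and 56.7, 49.5, 49.5, 37.9 and 45.1 CPM, again higher in all 5 mice. The log2 fold change was 0.47 ± 0.17 (SE) without LPS and 0.34 ± 0.17 (SE) with LPS (edgeR adjusted p = 0.0551 and 0.182, and 9.06e-05 and 0.00597 with mouse as a block).

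Trib3 and Ppp1r15a encode feedback proteins. TRIB3 is a pseudokinase that binds ATF4 and CHOP, and PPP1R15A, also called GADD34, brings a phosphatase to eIF2alpha. Trib3 in WT measured 16.2, 16.1, 19.2, 12.1 and 46.4 CPM untreated and 63.1, 44.3, 64.6, 39.7 and 122 CPM with piericidin A. Mouse 520 was highest in both, and every mouse rose, by 1.39 to 1.95 on the log2 CPM scale. The fit gave 1.60 ± 0.42 (SE) (edgeR adjusted p = 0.00886). With LPS the values were lower in all 5 mice, 7.08, 5.45, 5.47, 3.70 and 13.6 CPM without and 13.7, 10.5, 14.3, 9.87 and 20.2 CPM with piericidin A. The difference under LPS, 0.97 ± 0.47 (SE) on the log2 scale, was positive in 5 of 5 mice and passed with mouse as a block (adjusted p = 1.16e-05) but not without it (edgeR adjusted p = 0.154).

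Ppp1r15a rose with either agent alone and had its highest mean with both. Its WT levels were 31.4, 32.3, 36.8, 22.6 and 41.0 CPM untreated, 94.7, 61.5, 66.9, 83.9 and 122 CPM with piericidin A, 81.8, 80.5, 49.9, 70.8 and 60.1 CPM with LPS and 153, 92.4, 79.9, 119.5 and 137 CPM with both. Untreated libraries overlapped with none of the others, and of the libraries given both only that of mouse 453 fell within the range of LPS alone. Piericidin A added 1.38 ± 0.21 (SE) on the log2 scale without LPS (edgeR adjusted p = 1.4e-05) and 0.76 ± 0.21 (SE) with LPS (edgeR adjusted p = 0.00952). NDI1 libraries held 40.8, 31.2, 28.4, 24.1 and 44.9 CPM untreated and 49.5, 37.7, 30.9, 27.3 and 50.1 CPM with piericidin A, higher in 5 of 5 mice by 0.12 to 0.28 on the log2 CPM scale, and passed neither without (edgeR adjusted p = 1) nor with mouse as a block (adjusted p = 1). With LPS they held 75.1, 62.4, 77.4, 78.3 and 56.6 CPM without and 79.8, 53.6, 81.0, 83.0 and 58.7 CPM with piericidin A, a log2 difference of 0.03 (95% interval -0.38 to 0.43).

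Chac1 encodes an enzyme that breaks down glutathione and was close to the limit of detection in untreated cells. Untreated WT libraries held 0.245, 0.498, 0.203, 0.318 and 5.27 CPM, or 3 to 83 counts, with mouse 520 alone above 1 CPM. With piericidin A the values were 9.47, 6.13, 9.69, 13.1 and 36.9 CPM, or 88 to 395 counts. All 5 lay above all untreated libraries, and the rise was 3.47 ± 0.80 (SE) on the log2 scale (edgeR adjusted p = 0.00271). Under LPS Chac1 reached only 1.47, 0.512, 2.24, 1.64 and 4.92 CPM with piericidin A, against 0.681, 0.748, 0.112, 1.65 and 2.27 CPM with LPS alone (1 to 15 counts), and no difference was detectable at this depth (log2 1.03, 95% interval -0.75 to 2.81, edgeR adjusted p = 0.461).

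Sesn2 and Ddit4 encode Sestrin2 and REDD1, which both restrain the growth kinase complex mTORC1. Sesn2 in WT was 36.2, 28.3, 31.1, 27.2 and 32.0 CPM untreated and 59.8, 33.6, 39.6, 50.7 and 68.9 CPM with piericidin A, a rise in 5 of 5 mice with overlapping groups (0.70 ± 0.18 (SE) on the log2 scale, edgeR adjusted p = 0.00796). LPS took it to 6.53, 4.59, 4.24, 6.31 and 6.81 CPM, 5.47-fold lower, and piericidin A with LPS gave 9.38, 5.50, 8.65, 8.98 and 13.7 CPM. The level thus fell under LPS while the estimated response to piericidin A was 0.71 ± 0.22 (SE) on the log2 scale (edgeR adjusted p = 0.0207), and the change between these responses did not pass (edgeR adjusted p = 1.00, and 0.953 with mouse as a block).

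Ddit4 had, unlike Atf4, its larger estimated response with LPS. WT libraries held 1.88, 1.81, 2.10, 3.10 and 2.79 CPM untreated and 6.74, 2.30, 3.79, 7.18 and 9.33 CPM with piericidin A, where mouse 452 stayed within the untreated range. With LPS they held 1.63, 0.855, 1.45, 3.70 and 1.36 CPM and, with piericidin A, 9.38, 5.37, 10.6, 15.1 and 7.85 CPM. These groups did not overlap, and the mice rose by 1.97 to 2.72 on the log2 CPM scale. The fitted rise was 1.32 ± 0.43 (SE) on the log2 scale without LPS (edgeR adjusted p = 0.033) and 2.43 ± 0.46 (SE) with LPS (edgeR adjusted p = 0.00042). The change of the effect by LPS, 1.11, passed with mouse as a block (adjusted p = 0.0418) and not without it (edgeR adjusted p = 0.349). In NDI1 the values were 1.81, 5.49, 2.35, 2.33 and 2.65 CPM untreated and 0.914, 3.73, 1.72, 1.94 and 1.81 CPM with piericidin A, lower in 5 of 5 mice, with a log2 difference of -0.54 (95% interval -1.40 to 0.32) that did not pass the threshold (edgeR adjusted p = 1).

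Gdf15 encodes a secreted cytokine of the TGF-beta superfamily that rises in blood with mitochondrial stress. Its log2 fold change without LPS in WT ranked 10 of 11853 and was above that of Chac1 (4.21 against 3.47), an order that turned without mouse 520 (4.02 against 4.86) and in the median of the within-mouse differences (3.79 against 4.49). Untreated WT libraries held 56.8, 43.9, 28.5, 30.6 and 46.7 CPM, and those with piericidin A 787, 271, 249, 1285 and 1229 CPM. Mice 452 and 453 stayed well below mice 449, 496 and 520 with piericidin A, and all 5 lay above every untreated library. The rise was 4.21 ± 0.47 (SE) on the log2 scale (edgeR adjusted p = 6.28e-08). With LPS the values were 41.4, 29.3, 16.8, 21.4 and 28.6 CPM without and 245, 76.5, 103, 381 and 409 CPM with piericidin A, again without overlap, and the rise was 3.14 ± 0.46 (SE) (edgeR adjusted p = 1.09e-05). NDI1 libraries held 44.5, 24.6, 29.6, 28.3 and 55.0 CPM untreated and 85.8, 33.3, 39.4, 38.9 and 61.4 CPM with piericidin A. All 5 NDI1 mice were slightly higher with piericidin A, by 0.16 to 0.94 on the log2 CPM scale, and the fitted difference of 0.51 (95% interval -0.32 to 1.34) did not pass the edgeR threshold (adjusted p = 1). Without mice 496 and 503 the rise of Gdf15 in WT was 3.85 without LPS and 2.85 with LPS (edgeR adjusted p = 1.19e-05 and 0.000735).

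The difference in the piericidin A effect between genotypes was tested directly as NDI1 minus WT. Without LPS it was negative for all 10 genes and passed for 3, Gdf15, Atf3 and Ppp1r15a, against 1.27% of all genes called and 1.10% called lower. The values were -3.70 ± 0.61 (SE) for Gdf15 (edgeR adjusted p = 0.000374), -1.44 ± 0.37 (SE) for Atf3 (edgeR adjusted p = 0.0419) and -1.18 ± 0.29 (SE) for Ppp1r15a (edgeR adjusted p = 0.0288) on the log2 scale. As many as 9 of the 10 passed with mouse as a block, all but Atf5, among 8.96% of all genes called. Gdf15 alone stayed past the threshold without a mouse term when any of mice 449, 496, 520, 447, 460, 461, 503 or 521 was left out. Without both mice 496 and 503 this fit again called Gdf15 alone and the block called 8, without Atf5 and Sesn2.

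With LPS the genotype difference passed for Gdf15 (-2.58 ± 0.62 (SE), edgeR adjusted p = 0.0309) and Ddit4 (-2.92 ± 0.68 (SE), edgeR adjusted p = 0.0244), against 0.979% of all genes called and 0.818% called lower. Trib3 and Sesn2 passed as well with mouse as a block (9.51% of all genes called). The call of Gdf15 or Ddit4, or both, was lost without any 1 mouse other than mouse 452 in the fit without a mouse term. Without mice 496 and 503 neither gene passed in that fit, and both did with the block. The genotype difference of Atf4 and of Atf3 with LPS was -0.20 (95% interval -0.90 to 0.50) and -0.03 (95% interval -0.76 to 0.70) on the log2 scale.

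Within each mouse, the log2 CPM with piericidin A minus that without it could be compared between the 5 WT and the 5 NDI1 mice. Without LPS all 5 WT values exceeded all 5 NDI1 values for 8 of the 10 genes, all but Atf5 and Sesn2, against 11.4% of all genes whose values did not overlap in either direction. With LPS this held for 6 genes, Atf5, Trib3, Sesn2, Gdf15, Ddit4 and Ppp1r15a, against 9.74% of all genes. The WT mice differed among themselves: mouse 496 had the largest rise for 6 of 10 genes without LPS but for 2 with LPS, where mouse 453 had it for 5, and mouse 452 had the smallest for 6 of 10 genes both without and with LPS. Neutrophil markers were higher in mouse 496 than in the other WT mice in every treatment, highest with LPS and piericidin A together, and their part in its values was not tested.

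**Figure D3:**
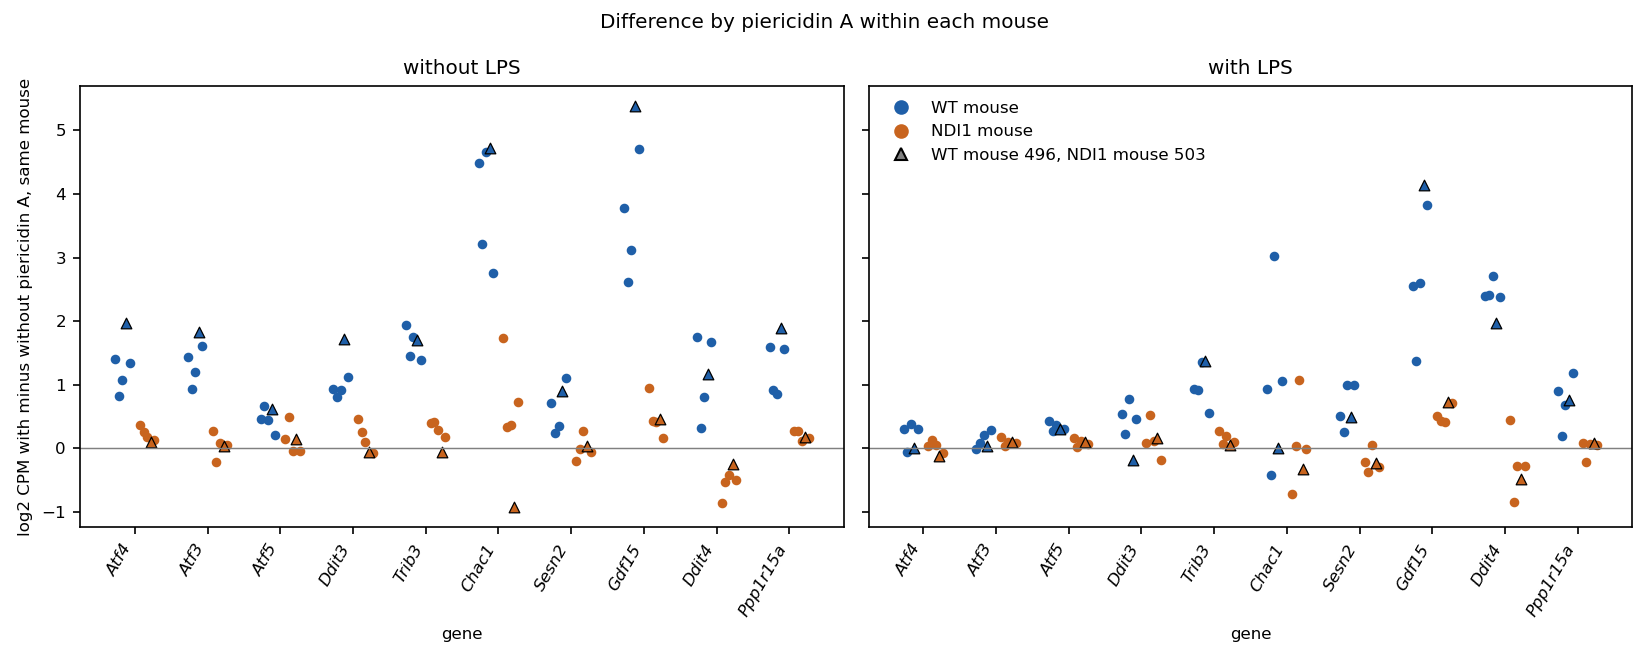
Log2 CPM with piericidin A minus log2 CPM without it in the same mouse, for each gene, without LPS (left) and with LPS (right); each point is 1 mouse, WT in blue and NDI1 in orange, and triangles mark WT mouse 496 and NDI1 mouse 503. For Gdf15 the WT points lie between 2.62 and 5.38 without LPS and the NDI1 points between 0.16 and 0.94.

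Group levels were also compared between genotypes. None of the 10 passed in untreated cells or with LPS, where no gene passed edgeR or DESeq2 (0% in both, with 39 and 141 genes at an unadjusted edgeR p under 0.05). With piericidin A 7 were lower in NDI1 than in WT (Atf4, Atf3, Chac1, Sesn2, Gdf15, Ddit4 and Ppp1r15a, against 7.80% of all genes called and 4.31% called lower). With LPS and piericidin A 4 were lower (Sesn2, Gdf15, Ddit4 and Ppp1r15a, against 12.0% called and 6.13% called lower), of which Gdf15 and Ddit4 alone passed without mouse 449, 460 or 520. Gdf15 was 14.7-fold lower in NDI1 than in WT with piericidin A and 7.09-fold lower with both agents (edgeR adjusted p = 3.25e-07 and 5.51e-05). In untreated cells the log2 difference between genotypes lay between -0.60 (Chac1) and 0.33 (Ddit4), and the interval of Gdf15 was -1.01 to 0.65.

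LPS by itself moved the 10 genes in different directions. In WT Atf3 rose by 1.62 ± 0.27 (SE) and Ppp1r15a by 1.06 ± 0.21 (SE) on the log2 scale, while Sesn2 (-2.45), Trib3 (-1.66), Ddit3 (95% interval -1.58 to -0.42) and Atf5 (-0.43) fell, which makes 6 of 10 called where 62.5% of all genes were. In NDI1 5 were called (62.7% of all genes), Atf3 (1.52) and Ppp1r15a (1.04) higher and Sesn2 (-2.12), Trib3 (-1.57) and Ddit3 (-1.13) lower. Both counts are close to the share over all genes. With mouse as a block 7 genes passed in each genotype (72.0% of all genes in WT and 72.4% in NDI1). Atf4 passed in neither genotype, with 0.15 (95% interval -0.34 to 0.64) in WT and 0.16 (95% interval -0.34 to 0.65) in NDI1.

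When piericidin A was present, LPS lowered 7 of the 10 genes in WT (51.9% of all genes called, 26.2% called lower): Chac1 (-2.80), Sesn2 (-2.45), Trib3 (-2.28), Gdf15 (-1.65), Ddit3 (-1.63), Atf4 (-0.98) and Atf5 (-0.57) on the log2 scale. With mouse as a block all 10 passed, and Atf3, Ddit4 and Ppp1r15a were the 3 that rose (62.5% of all genes called). In NDI1 given piericidin A, 5 were called (61.3% of all genes), the same 5 as with LPS alone in NDI1, and 7 with the block (71.0%). The change of the piericidin A effect by LPS in NDI1 passed for none of the 10 and for no gene by edgeR or DESeq2 (0%, with 78 genes at an unadjusted edgeR p under 0.05).

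Pathway genes around the members were counted from lists of known partners and targets, chosen with earlier results of these data known. Without LPS in WT, piericidin A raised 6 of 11 measured amino acid synthesis genes (median log2 fold change 0.60), 5 of 8 amino acid transporters (0.90), 5 of 13 genes for tRNA synthetases and tRNA export (0.46) and 4 of 8 bZIP partners (0.56), and lowered none of these, beside a median of -0.00045 over all genes tested, of which 14.8% were called and 7.79% were called higher. The block called 9 of the 11, 6 of the 8 and, among bZIP partners, 5 higher and 1 lower, where it called 34.2% of all genes. Asparagine synthetase Asns rose by 1.28 (edgeR adjusted p = 0.00768), and the serine synthesis gene Phgdh, at 0.60, did not pass (adjusted p = 0.248). The cystine transporter genes Slc7a11 and Slc3a2 rose by 2.40 and 0.93 (edgeR adjusted p = 0.000947 and 2.09e-05). Among synthetases the alanyl gene Aars rose by 0.57 and the cysteinyl gene Cars by 0.76 (edgeR adjusted p = 0.00639 and 0.00112), and the block called 8 of the 13 higher and 1 lower.

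Of the bZIP partners, Cebpb, which pairs with CHOP and ATF4, rose by 1.32 (edgeR adjusted p = 3.76e-05), and Cebpa was at -0.47 (adjusted p = 0.339, and 0.0111 with mouse as a block). Of 7 genes for the eIF2alpha kinases, their substrate and the mitochondrial relay, 0 were higher and 3 lower (median log2 fold change -0.047), where the same edgeR fit called 7.79% of all genes higher and 7.05% lower, and the block called 1 higher and 3 lower. The haem-regulated kinase gene Eif2ak1 (-0.27), the double-stranded RNA kinase gene Eif2ak2 (-0.95) and Eif2ak3, the gene of the ER kinase PERK (-0.79), were those that fell on the log2 scale, and neither relay gene, Oma1 (0.05) or Dele1 (0.10), passed (edgeR adjusted p of the 3 = 0.0433, 0.000425 and 0.00132). Of 14 ER chaperone genes 1 rose and none fell, and Hspa5 (0.41, adjusted p = 0.116) and Hsp90b1 (0.19, adjusted p = 0.54) did not pass, while with mouse as a block, where 34.2% of all genes were called, 6 of the 14 rose, Hspa5 and Hsp90b1 among them, and 1 fell. Of 9 other ATF4 and CHOP targets 3 rose and 1 fell, with Nupr1 at 0.50 and Vldlr at 0.08 (edgeR adjusted p = 0.329 and 0.93). Of 9 p53 targets, listed because p53 also acts on Sesn2, Gdf15 and Ddit4, 2 rose and 2 fell, with Cdkn1a at 0.31 and Mdm2 at 0.55 (edgeR adjusted p = 0.223 and 0.0858).

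With LPS present 3 of 11 amino acid synthesis genes, 2 of 8 transporters and 4 of 13 genes of the tRNA list rose, and of the 8 bZIP partners none rose and 2 fell, where 7.81% of all genes were called higher and 8.92% lower. The block, which called 34.5% of all genes here, called 5, 4 and 7 of the first 3 lists higher, 1 gene of the tRNA list lower, and 3 bZIP partners higher and 3 lower. Slc3a2 rose by 0.77 (edgeR adjusted p = 0.000323) and Aars by 0.41 (edgeR adjusted p = 0.0425), while Asns at 0.46 and Slc7a11 at 0.60 did not pass (edgeR adjusted p = 0.364 and 0.402). In NDI1 no gene of any of these lists passed in either setting. The neutrophil markers had a median log2 difference of 1.49 without LPS and 1.38 with LPS in WT, with 0 of 4 tested passing in both, and 2 and 3 of 4 passing with mouse as a block. The medians were 1.59 and 1.41 for 3 B cell markers, whose sum was at most 11.6 CPM, and 0.63 and 0.81 for 4 dendritic cell markers (at most 57.4 CPM), with none passing but 1 dendritic cell marker with LPS under the block. The part of these markers in the counts above was not tested.

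**Figure D4:**
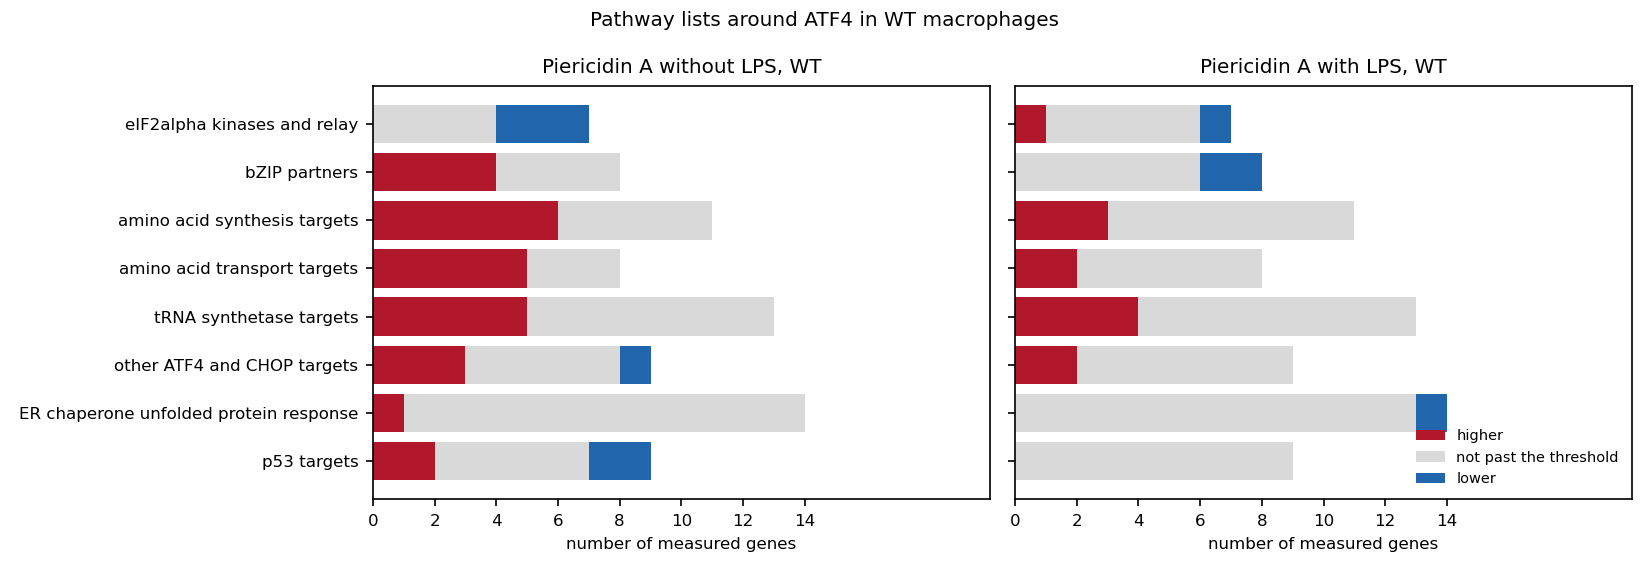
Number of measured genes of each pathway list that were higher (red), lower (blue) or not past an adjusted p of 0.05 (grey) with piericidin A in WT macrophages, without LPS (left) and with LPS (right). The amino acid transport list has 5 of 8 genes higher without LPS and 2 of 8 with LPS.

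Among genes outside the members, those most alike to each member in log2 CPM over the 40 libraries were Asns for Atf4 (Pearson r = 0.89), the chemokine gene Cxcl2 for Atf3 (0.95), the seryl-tRNA synthetase gene Sars for Atf5 (0.86), Mars for Trib3 (0.90), the cationic amino acid transporter gene Slc7a1 for Chac1 (0.85), the chemokine receptor gene Cxcr4 for Sesn2 (0.96), Pmp22 for Gdf15 (0.94), Fem1b for Ddit4 (0.80) and Gem for Ppp1r15a (0.93). For Ddit3 they were Sars (0.93), Lat2 (0.92), the gene ENSMUSG00000090262 (0.90), Mid1ip1 (0.89) and Commd6 (0.89). The 40 libraries share mice and treatments, and LPS moved most genes, so these values describe shared pattern only. By rank correlation 7 of the 10 had another gene in the leading place, and in the 20 WT libraries alone Atf5, Ddit3, Trib3, Gdf15 and Ddit4 had. Ppp1r15a kept Gem in both.

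Mouse 520 had the highest Atf4, Trib3 and Chac1 CPM levels of the untreated WT libraries, and mouse 521 those of the untreated NDI1 libraries.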

How the data were processed

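RNA of bone marrow-derived macrophages was sequenced as polyA-selected libraries, 1 per mouse and treatment. Per the labels and methods, the authors used bcl2fastq, Trimmomatic, STAR with mm10 and HTSeq, and deposited raw read counts per gene. Annotation release, use of strand and the versions of STAR and HTSeq are not given in the sources used here. The deposited length column, another quantity, exceeds the gene span for 1982 of 43430 genes, so GENCODE M21 union exon lengths were used for levels per kilobase. There was 1 column of per-sample values that matched no sample and was not used.

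Groups followed the labels. Counts were filtered with filterByExpr, scaled by TMM and fitted with the edgeR (4.0.16, R 4.3.3) quasi-likelihood model on 8 group means over 40 libraries. Benjamini-Hochberg adjustment of p-values covered 11853 genes (threshold 0.05), and standard errors are the log2 fold change over the root of F. Log2 CPM used a prior count of 2. Same-mouse libraries came from the same animal, and their deviations from group means correlated (mean r = 0.453 over 60 pairs, lowest 0.0995, against -0.107 over 240 other pairs), so mouse as a block was fitted as the paired alternative. Centring on group means makes the other pairs negative on average when same-mouse pairs are positive, so their value is not an independent baseline. No 2 libraries of a group agreed within sampling noise (80 pairs, lowest chi-square per degree of freedom 9.60). Totals of 6950748 to 13552070 counts limit precision for Chac1 and Ddit4.

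The members, lists and tests were chosen with earlier results of these data known. All 10 members were described, with the first 2 genes of each pathway list named by rule. Eif2ak3, Oma1 and Dele1 were named after their values were seen. Alternatives were RLE scaling, other count filters, a fold threshold, the block, fits on the compared groups alone, DESeq2 1.42.0, and each mouse left out. Leaving out mice 496 and 503 together was added after seeing the data. Scripts were tested on simulated data.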

Additional observations from a re-analysis of the deposited data

Results flagged for a closer look

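Of 80 sets of 5 libraries, 1 for each of the 10 genes in each group, 11 held a value far from the other 4 by Dixon's ratio on CPM (over 0.71). The rate of about 1 in 20 by chance holds for independent sets of normal values. The sets here share mice and CPM was not put on a log scale, so the 11 cannot be set against that rate. Atf4 was high in WT mouse 520 when untreated (237 CPM), with LPS (239.97 CPM) and with LPS and piericidin A (297 CPM), and in NDI1 mouse 521 with LPS (242 CPM). Mouse 520 was also high for Trib3 when untreated (46.4 CPM) and for Chac1 when untreated (5.27 CPM) and with piericidin A (36.9 CPM), and mouse 521 for Chac1 when untreated (2.86 CPM). Ddit4 was high in WT mouse 496 with LPS (3.70 CPM), in NDI1 mouse 460 when untreated (5.49 CPM) and in NDI1 mouse 503 with LPS and piericidin A (3.29 CPM).

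Effects that differed between groups by the edgeR interaction test are listed next, on the log2 scale. The piericidin A effect was smaller in NDI1 than in WT by -1.44 for Atf3, -3.70 for Gdf15 and -1.18 for Ppp1r15a without LPS, and by -2.58 for Gdf15 and -2.92 for Ddit4 with LPS. In WT the effect on Atf3 was smaller with LPS than without it, by -1.37.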

How the results depend on the processing

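Counts of the 10 genes called stayed within 1.5 times of the value in the report for 252 of 296 alternatives, and 1022 of 1128 log2 fold changes kept their direction and their side of the threshold. The 296 include comparisons in which no gene passed in the report, such as piericidin A in NDI1, where a repeated count of 0 was taken as unchanged. The 252 is therefore not a measure for the comparisons with called genes alone. With mouse as a block, which pairs libraries of 1 animal, the count became 7 for piericidin A with LPS in WT, 9 and 4 for the genotype difference without and with LPS, and 6 for the change of the piericidin A effect by LPS in WT. With the block and without mice 496 and 503 these were 7, 8, 2 and 4, and 8 for LPS in NDI1 with or without piericidin A. Without these mice and with no block, the genotype difference was called for 1 gene without LPS and 0 with LPS, and the change by LPS for 0. Fits on the compared groups alone called 1, 1 and 0 for the same 3 tests. With a log2 fold change of at least 1 as well, 2 genes were called for piericidin A with LPS in WT and 2 for NDI1 against WT with both agents. With 10 counts required in every library, the genotype difference with LPS was called for 1 gene, and DESeq2 called 2 genes for the change by LPS.

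With each mouse left out in turn, the counts ran from 2 to 4 for piericidin A with LPS in WT, 1 to 3 and 0 to 2 for the genotype difference without and with LPS, 0 to 2 for the change by LPS in WT, and 2 to 4 for NDI1 against WT with both agents. With 1 mouse left out the sign turned for 3 values that had not passed. The genotype difference of Atf3 with LPS ran from -0.060 to 0.032 (positive without mouse 520). The effect of LPS itself on Chac1 in WT without piericidin A, -0.35 with all mice, ran from -0.82 to 1.25 (positive without mouse 520). The change by LPS of the piericidin A effect on Sesn2 in WT ran from -0.15 to 0.10 (negative without mouse 452, at -0.012, or 453). The cause was not tested. No analysis paired by mouse was possible for NDI1 against WT at 1 treatment, because the genotypes share no mouse. The litter of single mice is not given in the sources used here, so pairing by litter was not tested. Of 10 levels per kilobase, 6 moved by more than 1 SD with the deposited length. At these depths Chac1 rests on 1 to 15 counts in WT libraries with LPS, which limits its comparison there. The 5 mice of a group are separate animals, and sex and age of single mice were not used.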
